A study of Homo sapiens with 4 samples.

Results

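Cyclins are the regulatory subunits of cyclin-dependent kinases (CDKs), and 42 genes of this system were followed here: cyclins, CDKs, CDK inhibitors and the phosphatases that act on CDKs. They were chosen by name, as the genes of the authors' annotated sheet whose symbol equals a member of the list, and all 42 were found among the 24305 genes with 1 symbol. Their values are gene-level log2 signals from an Affymetrix human whole-transcript array, and 39 of the 42 reached a floor of 7.17, against 12353 of all genes. The floor was the median, over named probe sets, of the mean signal of both media. CCND2, CCNC and CDKN2B were under it.

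The cells were MDA-MB-231, a human breast carcinoma line of mesenchymal appearance that is known to carry a homozygous loss of CDKN2A. Cells had 24 hours in standard medium with serum and then 3 days in control or treated medium. Each medium was 1 part of concentrated DMEM and 9 parts of hypotonic saline, so the dilution with saline was common to both groups. The saline of the treated medium had spent 30 minutes under the dc DEP EMF from the BEFE (Bio-Electric Field Enhancement) unit, and the saline of the control medium had not. The comparison asks which genes differ in signal between these media.

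The series holds 4 samples, 1 per medium at gene level and 1 per medium at exon level. The 5391 probe sets present at both levels had equal values, so the levels are different summaries of the same hybridisation and not replicates. Per the labels' protocols RNA quality was checked in 5 biological replicates of each group, and whether a column is 1 array, a pool or an average is not given in the sources used here. With 1 value per medium there is no error, no interval and no test, and a gene is called lower or higher below only by its size, at 2-fold or more. Median signal was 6.33 in the control and 6.31 in the treated medium. VIM, CD44, KRT8, KRT18 and PLAUR were above the floor, ESR1, PGR and CDH1 were under it, and ERBB2 and EPCAM, listed as low markers, were above it. Of 12 measured markers of leukocytes, endothelium, fibroblasts and blood, COL1A1 and HBA1 were above the floor.

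A CDK has little activity without its cyclin. D-type cyclins with CDK4 and CDK6, and then cyclin E with CDK2, phosphorylate the retinoblastoma protein and release E2F factors, which drive genes of S phase. Cyclin A with CDK2 and CDK1 acts in S and G2 phase, and cyclin B with CDK1 drives entry into mitosis. INK4 inhibitors block CDK4 and CDK6, Cip/Kip inhibitors act on CDK2 complexes, and CDC25 phosphatases remove the inhibitory phosphates of CDKs. Another branch of the family phosphorylates RNA polymerase II. It holds CDK7 with cyclin H, CDK8 with cyclin C, CDK9 with T-type cyclins, and CDK12 and CDK13 with cyclin K. CDK7 with cyclin H is also the CDK-activating kinase, so the branches are not fully separate.

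Many S, G2 and M phase genes share short promoter elements, so the stretches before the start sites of 6 members that were at least 2-fold lower in treated medium are shown with those of 2 members within 2-fold, CDK4 and CDK9. These genes were picked and do not stand for their groups. CDK4 and CDK9 hold no match here, while CCAAT was in a longer stretch of 300 bases in 8 of 23 members within 2-fold. Each sequence is the 200 bases before the start of a gene with 1 listed start, 5′ to 3′ on the strand of the gene, from RefSeq on GRCh38.p14. Capitals mark 3 elements, each searched on both strands, so that some appear as their reverse complement. They are the CCAAT box, the E2F element TTTNNCGC, and the CHR (cell cycle genes homology region) element, searched as TTTGAA and in the variant form TTCGAA. Other forms were not searched, so a stretch without a mark is not shown to lack an element. The first 5 are of cyclin A2, cyclin B1, cyclin B2, cyclin F and CDKN3.
CCNA2 (chr4:121823884-121824083, minus strand): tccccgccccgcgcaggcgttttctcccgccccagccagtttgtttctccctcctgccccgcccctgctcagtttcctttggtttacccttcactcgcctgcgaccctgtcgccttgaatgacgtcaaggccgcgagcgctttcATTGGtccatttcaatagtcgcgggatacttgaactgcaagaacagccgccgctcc
CCNB1 (chr5:69166950-69167149, plus strand): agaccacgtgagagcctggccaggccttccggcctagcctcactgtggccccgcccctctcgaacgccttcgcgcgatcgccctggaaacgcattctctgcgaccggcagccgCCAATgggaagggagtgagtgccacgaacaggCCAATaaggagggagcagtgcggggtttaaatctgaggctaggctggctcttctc
CCNB2 (chr15:59104946-59105145, plus strand): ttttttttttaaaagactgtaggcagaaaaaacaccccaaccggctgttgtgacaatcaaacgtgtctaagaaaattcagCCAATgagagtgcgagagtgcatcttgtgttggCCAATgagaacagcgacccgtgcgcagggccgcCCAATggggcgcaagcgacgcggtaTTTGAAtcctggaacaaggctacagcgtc
CCNF (chr16:2429247-2429446, plus strand): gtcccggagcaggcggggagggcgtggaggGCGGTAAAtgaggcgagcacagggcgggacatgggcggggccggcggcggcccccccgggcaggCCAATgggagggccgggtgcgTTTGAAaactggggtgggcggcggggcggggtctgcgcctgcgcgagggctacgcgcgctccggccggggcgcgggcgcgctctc
CDKN3 (chr14:54396807-54397006, plus strand): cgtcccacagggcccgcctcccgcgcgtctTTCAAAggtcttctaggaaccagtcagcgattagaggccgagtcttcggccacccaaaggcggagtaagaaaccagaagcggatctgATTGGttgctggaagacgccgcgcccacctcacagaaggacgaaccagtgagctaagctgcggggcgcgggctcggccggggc
The phosphatase gene CDC25A and the 2 genes within 2-fold follow.
CDC25A (chr3:48188418-48188617, minus strand): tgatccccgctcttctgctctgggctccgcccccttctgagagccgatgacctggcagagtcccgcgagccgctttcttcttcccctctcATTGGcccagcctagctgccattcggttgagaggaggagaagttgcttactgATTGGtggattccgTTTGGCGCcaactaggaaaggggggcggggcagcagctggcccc
CDK4 (chr12:57752311-57752510, minus strand): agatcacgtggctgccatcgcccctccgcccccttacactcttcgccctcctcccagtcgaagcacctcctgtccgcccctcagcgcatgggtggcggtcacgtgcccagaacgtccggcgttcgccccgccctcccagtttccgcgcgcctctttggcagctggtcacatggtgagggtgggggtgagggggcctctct
CDK9 (chr9:127785834-127786033, plus strand): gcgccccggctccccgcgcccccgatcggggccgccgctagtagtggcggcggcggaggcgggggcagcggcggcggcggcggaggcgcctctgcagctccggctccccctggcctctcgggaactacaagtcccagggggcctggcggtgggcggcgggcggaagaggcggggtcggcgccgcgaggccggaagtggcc

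Of the 39 members above the floor, 14 had a signal at least 2-fold lower in treated medium, and 0 had one at least 2-fold higher. Among all 12353 genes above the floor, 3.46% were lower and 3.22% higher by that limit. The 14 were the cyclins CCNE2, CCNA2, CCNB1, CCNB2, CCNE1, CCNF and CCNG1, the kinases CDK1 and CDK2, the inhibitor CDKN2C, and the phosphatases CDKN3, CDC25A, CDC25B and CDC25C. The members had a median difference of -0.24 (quartiles -1.19 and 0.12), where the median over all genes was -0.01 (quartiles -0.26 and 0.25). Below 0 were 25 of the 39, against 50.6% of all genes. These values come from bulk RNA, in which fewer cells in a given phase and less RNA per cell cannot be told apart.

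**Figure D1:**
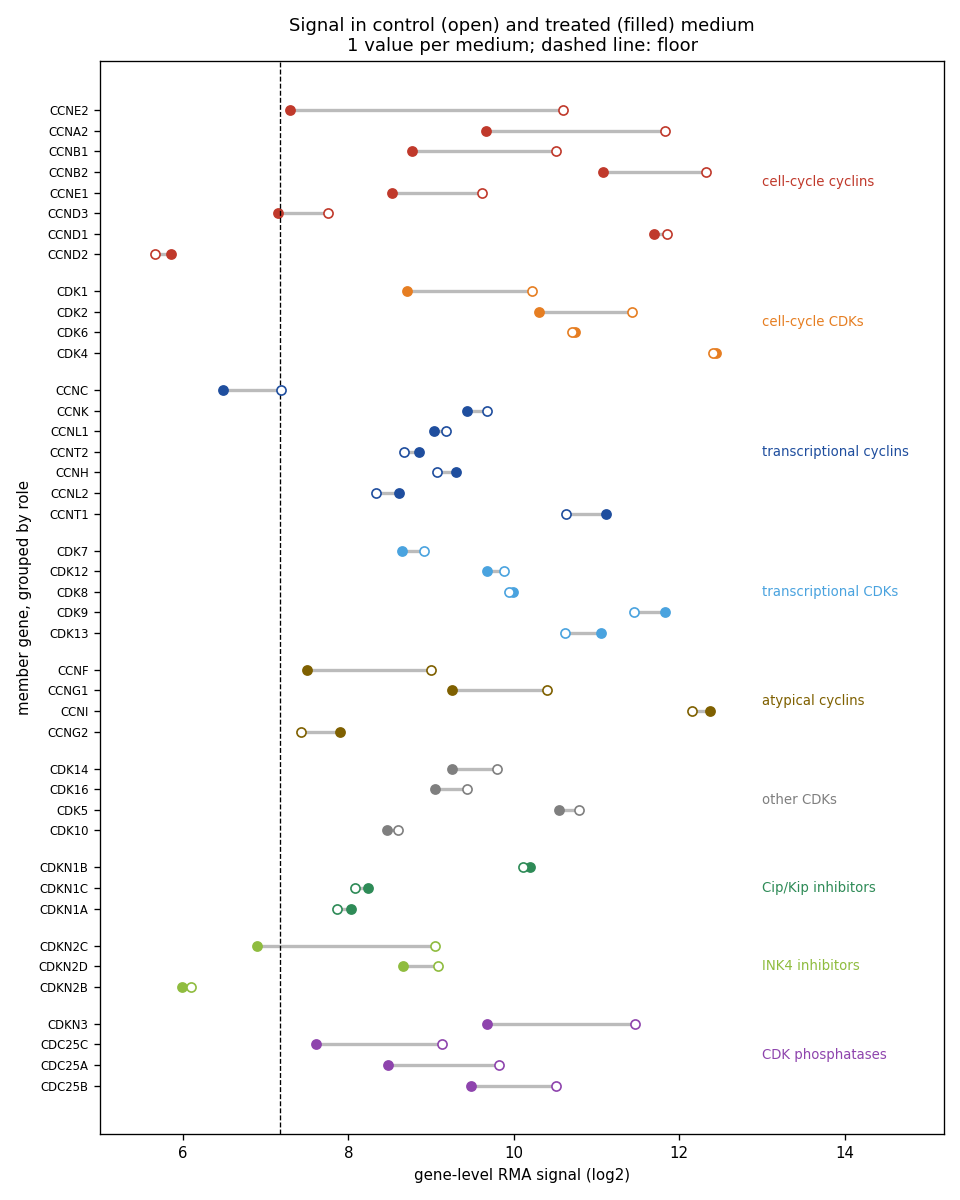
Gene-level log2 signal of the 42 members (x axis) by role (y axis), open circles for control and filled circles for treated medium, 1 value each, with the floor of 7.17 as a dashed line. The filled circle lies left of the open one by more than 1 log2 unit for 14 members, from CCNE2 at -3.31 to CDC25B at -1.03, and no member has it more than 1 unit to the right.

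Cell-cycle cyclins and transcriptional cyclins differed in where they stood. Of 11 cell-cycle cyclins and CDKs above the floor, 7 were at least 2-fold lower, with a median of -1.12 (range -3.31 to 0.05). Of 11 transcriptional cyclins and CDKs above the floor, 0 were at least 2-fold lower or higher, with a median of 0.18 (range -0.26 to 0.48). Among all genes 3.46% were lower and 3.22% higher by that limit, so 0 of 11 is near the background. The gap between the medians was -1.30 on the log2 scale. At a limit of 1.5-fold, 8 of the 11 cell-cycle genes and 0 of the 11 transcriptional ones were lower, against 9.74% of all genes. That 0 depends on the floor: CCNC, the transcriptional cyclin left out, was 1.64-fold lower. Its control signal of 7.19 was just above the floor and its treated signal of 6.48 under it. Exon-level probe sets of CCNC reached a control signal of 12.69, and 10 of the 11 above their own floor were below 0. Its low gene-level signal therefore does not mean that all its probe sets were weak. With no floor, 1 of 12 transcriptional genes and 8 of 12 cell-cycle genes were lower by 1.5-fold, a setting chosen after seeing the data. The share of all genes was not counted for that setting. The ranges overlapped: 8 of the 11 cell-cycle genes lay below every transcriptional one above the floor, and the other 3 were CCND1, CDK4 and CDK6. Counting CCNC, at -0.71, the 8 became 7, since CCND3 stood at -0.60. Because there is 1 value per medium, the gap was not tested.

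**Figure D2:**
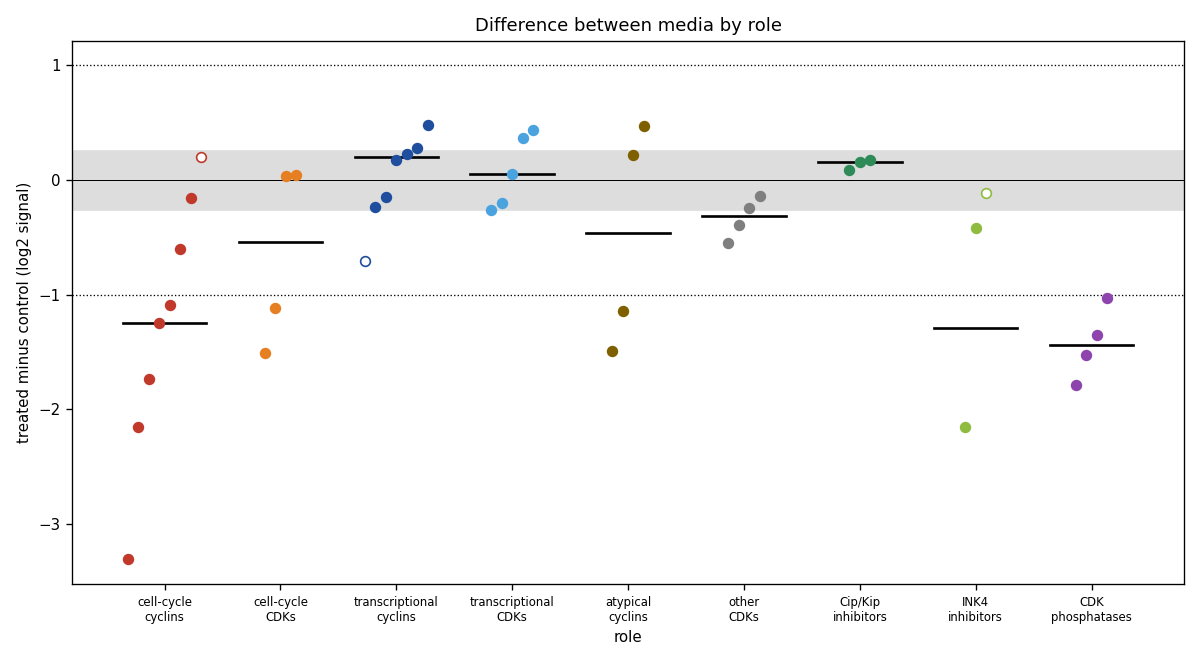
Log2 difference, treated minus control (y axis), of each member by role (x axis). Filled points are above the floor and open points under it, bars are medians of filled points, the grey band spans the quartiles of all genes (-0.26 to 0.25), and dotted lines mark 2-fold. All 4 CDK phosphatases lie under the lower dotted line, while the filled points of the transcriptional cyclins and CDKs lie between -0.26 and 0.48.

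The lowest member was CCNE2, one of the 2 cyclin E genes, whose products activate CDK2 at the start of S phase. Its log2 signal was 10.60 in the control and 7.29 in the treated medium, 9.89-fold lower (transcript cluster 17079293), and only 2 of the 12353 genes had a lower difference. The paralogue CCNE1 had signals of 9.62 and 8.53, a difference of -1.09 and 2.13-fold lower. Both cyclin E genes were thus lower in treated medium, CCNE2 by more on the log2 scale than CCNE1.

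CCNA2, the cyclin of S and G2 phase, had signals of 11.82 in the control and 9.67 in the treated medium, 4.46-fold lower. CCNB1, the main mitotic cyclin gene, had signals of 10.51 and 8.77, 3.34-fold lower. Its paralogue CCNB2 had signals of 12.33 and 11.08, 2.37-fold lower. In each of these 3 genes the signal was above the floor in both media. Their promoters, shown above, hold 1 CCAAT match in CCNA2, 2 in CCNB1 and 3 in CCNB2 within the 200 bases. A match to a searched form of CHR was found in CCNB2, and other forms were not searched in any of them.

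D-type cyclins, which respond to growth factors and act before the others, differed less at gene level. CCND1, the D-type cyclin gene often amplified in breast cancer, had signals of 11.85 in the control and 11.69 in the treated medium. CCND3 had signals of 7.76 and 7.15, a difference of -0.60, and its treated signal was just under the floor. Its exon-level probe sets reached a control signal of 12.40. Of the 9 above their own floor, 3 were at least 2-fold lower, with a median of -0.92 over the 9. CCND2 was under the floor in both media, at 5.66 and 5.86. No D-type cyclin passed 2-fold at gene level. CCND3 was the member above the floor nearest to the limit from within, at 1.52-fold lower, where CDC25B was the nearest beyond it, at 2.04-fold lower.

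Cell-cycle CDKs split into a pair that was lower and a pair near 0. CDK1, the kinase of mitotic entry, had signals of 10.22 in the control and 8.71 in the treated medium, 2.85-fold lower. CDK2, the partner of cyclins E and A, had signals of 11.43 and 10.31, 2.17-fold lower. CDK4, a partner of D-type cyclins, had signals of 12.40 and 12.45, and CDK6, its paralogue, of 10.70 and 10.74. Differences of 0.05 for CDK4 and 0.04 for CDK6 lay inside the quartiles of all genes, as did that of CCND1 at -0.16. CDK4 and CDK6 therefore stood beside CCND1, and CDK1 and CDK2 stood with cyclins A, B and E among the lower members.

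The 4 phosphatase genes were all at least 2-fold lower in treated medium. CDKN3 encodes a phosphatase that removes the activating phosphate of CDK2 and CDK1 and so acts against CDKs. Its signals were 11.47 in the control and 9.68 in the treated medium, 3.46-fold lower. The CDC25 phosphatases act the opposite way, by removing inhibitory phosphates.

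CDC25A, which acts on CDK2 at the start of S phase and is degraded after DNA damage, had signals of 9.82 and 8.47, 2.55-fold lower. CDC25C, a phosphatase of mitotic entry, had signals of 9.13 and 7.60, 2.88-fold lower. CDC25B, held to start CDK1 activation in G2 phase, had signals of 10.50 and 9.48. Genes that restrain and genes that activate CDKs were therefore both among the lower ones.

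The INK4 inhibitor CDKN2C (p18), which binds CDK4 and CDK6, was the 1 inhibitor among the lower members. Its signals were 9.05 in the control and 6.89 in the treated medium, 4.45-fold lower, and the treated signal was under the floor. Its control signal was 3.68-fold above that floor. CDKN2D (p19), another INK4 inhibitor, had signals of 9.08 and 8.66, a difference of -0.42. CDKN2B (p15), which lies beside CDKN2A on chromosome 9, had signals of 6.10 and 5.98. It was under the floor in both media, and CDKN2A was too, at 5.78 and 5.84.

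The Cip/Kip inhibitors lay near 0 at gene level. CDKN1A (p21), which halts the cycle after DNA damage, had signals of 7.86 in the control and 8.04 in the treated medium. Its exon-level probe set of highest signal went from 10.84 to 11.85. It was 1 of 2 that were at least 2-fold higher among 6 above their floor, with a median of 0.11 over the 6. CDKN1B (p27), an inhibitor abundant in resting cells, had signals of 10.11 and 10.20. CDKN1C (p57), an imprinted gene, had signals of 8.08 and 8.23. All 3 gene-level differences were above 0, from 0.09 to 0.18, and inside the quartiles of all genes. Among the 5 INK4 and Cip/Kip inhibitors above the floor, none passed 2-fold on the higher side, and CDKN2C was the 1 that passed it on the lower side. With 3.22% of all genes higher and 3.46% lower by that limit, none of 5 on the higher side is near the background.

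Among the atypical cyclins, CCNF and CCNG1 were lower, while CCNG2 and CCNI were not. CCNF encodes an F-box protein that marks substrates for degradation in G2 phase and binds no known CDK. Its signals were 8.99 in the control and 7.50 in the treated medium, 2.81-fold lower. CCNG1, a cyclin induced by DNA damage, had signals of 10.40 and 9.26, 2.20-fold lower. CCNG2, its paralogue and a gene linked to cell cycle arrest, had signals of 7.43 and 7.90, a difference of 0.47. CCNI had signals of 12.16 and 12.37. The 2 cyclin G genes thus stood on opposite sides of 0, by -1.14 and 0.47.

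The 4 kinases outside both branches were all below 0, where 50.6% of all genes were. None was lower by 2-fold, where 3.46% of all genes were, so that count is near the background. The shared sign of 4 genes was not tested, and CDK14 turned to 0.67 when its transcript clusters were averaged. CDK14 had signals of 9.80 in the control and 9.25 in the treated medium, and CDK16, which binds cyclin Y, had 9.44 and 9.05. CDK5, known for its role in neurons, had 10.78 and 10.54, and CDK10 had 8.60 and 8.46. Their differences ran from -0.55 for CDK14 to -0.14 for CDK10.

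None of the transcriptional cyclins and CDKs was past 2-fold. Some partners within a complex stood on opposite sides of 0, by small differences that were not tested. In the positive elongation factor P-TEFb, which releases paused RNA polymerase II, all 3 members were above 0. Among all genes 50.6% were below 0, and the shared sign of 3 genes was not tested. CDK9 had signals of 11.46 in the control and 11.83 in the treated medium. CCNT1, its main cyclin, had 10.63 and 11.12, and was the member with the highest difference, 0.48 or 1.40-fold. CCNT2, the alternative cyclin, had 8.68 and 8.85, a difference of 0.18 that lay inside the quartiles of all genes. Of all genes above the floor, 87.4% had a lower difference than CCNT1 and 82.4% a lower one than CDK9.

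CDK12, CDK13 and their partner cyclin K act later in elongation and differed in direction. CDK13 had signals of 10.61 in the control and 11.05 in the treated medium, a difference of 0.44. CDK12, the paralogue needed for long DNA repair genes, had 9.89 and 9.68, and CCNK had 9.67 and 9.43. The differences of CDK12 and CCNK, at -0.20 and -0.24, had the opposite sign to that of CDK13.

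CDK7 and CCNH form the CDK-activating kinase, which also serves the transcription factor TFIIH. CDK7 had signals of 8.91 in the control and 8.65 in the treated medium, and CCNH of 9.08 and 9.30. CDK8, the kinase of the Mediator complex, had 9.94 and 9.99. Its partner CCNC had 7.19 and 6.48, a difference of -0.71, with a mean under the floor. The L-type cyclins, partners of CDK11 that are linked to splicing, had signals of 9.18 and 9.03 for CCNL1 and of 8.34 and 8.62 for CCNL2. Except for CCNC, all of these lay between -0.26 and 0.28.

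Exon-level probe sets show whether a difference runs along a gene or sits in 1 place. The members had 468 exon-level probe sets above the exon-level floor of 7.34. Of the 119 in cell-cycle cyclins and CDKs, 66 (55.5%) had a signal at least 2-fold lower, and 0 had one at least 2-fold higher. Of the 161 in transcriptional cyclins and CDKs, 5 (3.11%) lay past 2-fold on each side. Over all 173735 exon-level probe sets above the floor, 4.85% were lower and 4.65% higher by that limit. Probe sets of a gene measure the same RNA and are not replicates.

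The 14 lower members were called from gene-level signals of the same hybridisation, so a shared sign at exon level is no separate support. In 12 of the 14, every exon-level probe set above the floor was below 0. All 9 of CDK1 ran from -2.03 to -1.07, all 9 of CCNA2 from -2.55 to -1.46, and all 6 of CDKN3 from -2.14 to -1.52. In these 3 genes every probe set above the floor was thus at least 2-fold lower. Probe sets under the floor were more mixed, from -4.76 to 1.01 in CDK1 and from -3.80 to 0.15 in CDKN3. The exceptions were CCNE2, where 11 of 12 were below 0 and the other was at 0.20, and CCNG1, where 13 of 15 were below 0. In CDC25B, 12 of 19 were at least 2-fold lower and all 19 were below 0, with a range from -2.01 to -0.12.

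**Figure D3:**
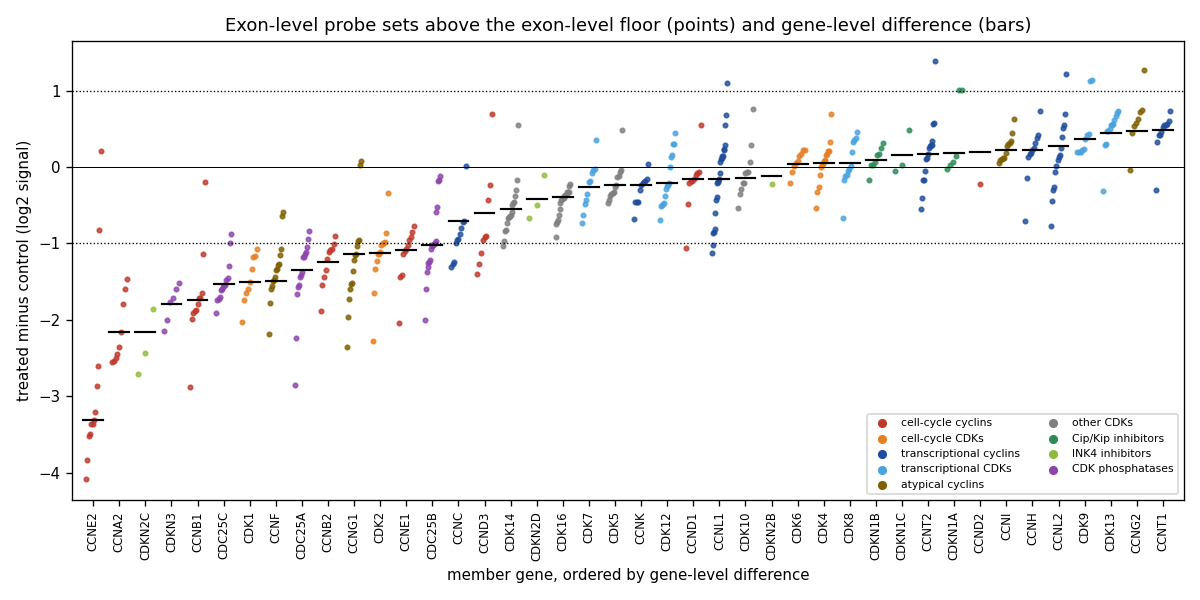
Log2 difference, treated minus control (y axis), of the exon-level probe sets above the exon-level floor (points, coloured by role) for each member, ordered by its gene-level difference (x axis, black bars). In CCNE2 the points run from -4.08 to 0.20, in CDK1 from -2.03 to -1.07 and in CDK6 from -0.21 to 0.23, with dotted lines at 2-fold.

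Members within 2-fold at gene level also held probe sets that disagreed. In CCNL1, 24 probe sets ran from -1.13 to 1.09, with 2 past 2-fold on the lower side and 1 on the higher side. In CDKN1A, 2 of 6 were at least 2-fold higher, both at 1.01, with a median of 0.11 over the 6. In CCND3, 3 of 9 were at least 2-fold lower, with a median of -0.92, which was further below 0 than its gene-level difference. In CCNC, whose gene-level signal was under the floor, 10 of 11 were below 0 with a median of -0.94. The cause of these disagreements was not tested.

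Counted over all members, the promoter elements were unevenly spread. RefSeq windows of 300 bases (250 before and 50 after a start) were at hand for 37 members and for 27305 genes in all, 35116 windows. CCAAT, on either strand, was in a window of 11 of the 12 lower members that had one and of 8 of the 23 members within 2-fold, against 39.7% of all genes. A CHR match was in 6 of the 12 and in 1 of the 23, against 19.5% of all genes. Both elements in the same window were found in 6 of the 12 and 0 of the 23, against 7.85% of all genes. The 6 were CCNB2, CCNF, CDK1, CDKN3, CDC25B and CDC25C. CCNC, under the floor and so in neither set, also held both, as 1 of 12 transcriptional cyclins and CDKs (8.33%).

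The E2F element was in 4 of the 12 lower members (CCNF, CCNG1, CDK1 and CDC25A) and in 2 of the 23 within 2-fold (CDK10 and CDKN2D), against 8.23% of all genes. In CDC25A it began 44 bases before the start, and in CCNB2 the CHR match began 29 bases before the start, with CCAAT matches 54, 87, 120 and 244 bases before it. The 12 lower members had 22 windows, some of them overlapping, and the 23 others had 33, so counts per window are lower. Per window, CCAAT was in 15 of the 22 and in 10 of the 33, against 34.6% of all windows. The E2F element was in 0 of 12 transcriptional and 1 of 8 cell-cycle cyclins and CDKs with a window, both near the share of all genes. CCAAT was in 5 of the 12 transcriptional genes (41.7%) and 5 of the 8 cell-cycle ones (62.5%), against 39.7% of all genes. A match of letters is no binding site, a missing match does not show that an element is absent, and the shares were not tested.

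Partners of the cell-cycle kinases had a lower median difference than partners of the transcriptional kinases, with ranges that overlapped (-1.99 to 0.36 and -0.54 to 0.64). The gap was not tested. Of 18 partners and regulators of cell-cycle CDKs above the floor, 4 were lower by 2-fold or more and 0 were higher by as much, against 3.46% and 3.22% of all genes, with a median of -0.22. FBXO5 (EMI1), an inhibitor of the anaphase-promoting complex, had signals of 10.42 in the control and 8.44 in the treated medium. SKP2, the ubiquitin ligase subunit that degrades p27, had 12.13 and 10.32. CDC20, an activator of the anaphase-promoting complex, had 12.01 and 10.28, 3.32-fold lower.

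PKMYT1, a kinase that holds CDK1 inactive, had signals of 8.25 in the control and 7.06 in the treated medium, the latter under the floor. On the other side of 0, CDKN2AIP and CDK2AP2 had the highest differences in that list, at 0.36 and 0.33. Of 20 partners and regulators of transcriptional CDKs, all above the floor, 0 passed 2-fold in either direction, with a median of 0.21. At 3.46% lower and 3.22% higher among all genes, a count of 0 in a list of this length is near the background. ELL, an elongation factor, stood highest at 0.64. ERCC2 and HEXIM1, a TFIIH helicase and an inhibitor of P-TEFb, stood lowest at -0.54 and -0.27.

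**Figure D4:**
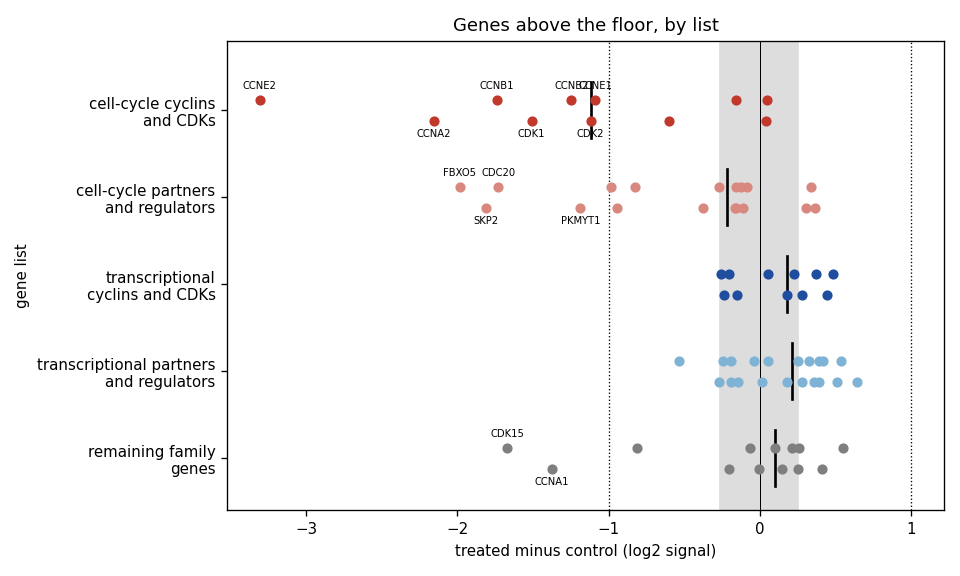
Log2 difference, treated minus control (x axis), of genes above the floor in 5 lists (y axis), with medians as black bars, the quartiles of all genes in grey and dotted lines at 2-fold. Genes past 2-fold are named. The medians are -1.12 and -0.22 for the cell-cycle lists, and 0.18 and 0.21 for the transcriptional lists.

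Of 20 further family genes, 18 had a symbol of their own in the sheet and 13 of them were above the floor, with a median of 0.10. CCNA1, the cyclin A gene best known from the male germ line, had signals of 10.27 in the control and 8.89 in the treated medium, 2.60-fold lower. CDK15 had 9.22 and 7.55, 3.19-fold lower. CDK19, the paralogue of CDK8, stood highest at 0.55 and CCNY, the partner of CDK14 and CDK16, next at 0.41. Lower values were therefore found in both cyclin A genes.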

How the data were processed

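Signals were measured in MDA-MB-231 cells in control and treated medium. The gene-level table (53617 probe sets) and the exon-level table (352859 probe sets) that the authors deposited hold log2 values. Per the submitters' processing notes these came from RMA, run in the Affymetrix Expression Console, whose version is not given in the sources used here. This method gives both arrays 1 distribution of probe signals, which removes any shift common to most genes. The sheet deposited by the authors holds a linear intensity per medium, gene symbols and a ratio of control over treated intensity. Its intensities equalled the antilog of the gene-level values within 5.03e-05 on the log2 scale. The files name no genome build.

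Differences were log2 treated minus log2 control, computed with pandas 2.3.3 in Python 3.11.15. The code was tried on simulated data with small noise and added differences larger than the limit. That checks the arithmetic and not the calls made in these data. Probe sets with 1 symbol gave 24305 genes, and a symbol with several transcript clusters, CDK14 among the members, was represented by its cluster of highest mean. Genes under the floor of 7.17 were left out of counts. Of the members, 30 matched RefSeq by accession and 12 by symbol, all under current symbols. No file pairs exon-level probe sets with genes, and each was assigned to the transcript cluster whose ID precedes its own. Over 26802 clusters with at least 3 such probe sets, their median and the gene-level signal in control medium had a Pearson r of 0.981 across clusters, and of 0.219 when shifted by 1 cluster. Clusters are not independent replicates. For arrays, their number limits the precision.

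The members, the roles and the wider lists were chosen with earlier results of these data known. All members are named, and of the wider lists the genes past 2-fold, or the 2 furthest from 0 on a side where fewer passed. One gene that this rule names is not reported here. The alternatives were 3 other scalings, 2 other floors, signals raised to the floor, means over clusters, exon-level medians and a limit of 1.5-fold. The use of 1.5-fold over all members, and together with no floor, was chosen after seeing the data.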

Additional observations from a re-analysis of the deposited data

How the results depend on the processing

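The counts and medians of the members kept their direction under all 8 alternatives and at a limit of 1.5-fold. The number of cell-cycle cyclins and CDKs called lower was 7 under the 8 alternatives and 8 at 1.5-fold, where 9.74% of all genes were lower, and that of transcriptional ones was 0 each time. With no floor and 1.5-fold together, chosen after seeing the data, the counts were 8 and 1, the 1 being CCNC. The share of all genes was not counted for that setting. Over all members the count of lower genes ran from 11 of 27 with a floor at the 75th percentile to 14 under the 8 alternatives. It was 15 at 1.5-fold, and the count of higher genes was 0 each time. Among all genes, 265 of 6241 were 2-fold lower and 196 higher with the floor at the 75th percentile. With no floor these counts were 503 and 500 of 24305. The gap between the class medians ran from -1.32 to -1.22. Of 300 gene values under the alternatives, 299 stayed on their side of 2-fold and 0 reversed a call. The other was CDC25B, at -0.99 under quantile normalization. Many of the 300 could not move. The 2 other floors change no gene's difference, and means over clusters change only that of CDK14 among the members. Signals raised to the floor change only genes with a signal under it. The sign turned in 3 values of members within 2-fold: CDK14 stood at 0.67 with means over transcript clusters, and CDK8 and CDKN1C at -0.01 with exon-level medians. The alternatives reuse 1 value per medium and give no measure of the spread between cultures. No paired analysis was possible because each medium has 1 sample per level.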

Other observations

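CDK14 has another transcript cluster in the deposited table, with the opposite direction. The cluster 17048223, annotated by a single accession and read by 1 exon-level probe set, had log2 signals of 5.02 in the control and 6.91 in the treated medium, a difference of 1.89. Both signals were under the floor of 7.17, whereas the main cluster stood at -0.55 with 16 of 17 exon-level probe sets above the floor below 0. CDKL3, a kinase gene related to the CDKs, was likewise under the floor by its mean, with signals of 6.29 in the control and 7.27 in the treated medium. It had the highest difference of the wider family list, at 0.98, and was named after its value was seen.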
